A study of Homo sapiens with 6 samples.

Results

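Expression of 10 immediate-early genes outside the AP-1 family was examined in U87 cells, an established human glioblastoma line, after 48 h with 100 μM rutaecarpine. The genes were EGR1, EGR2, EGR3, NR4A1, NR4A2, NR4A3, KLF4, KLF6, IER2 and IER3, and each was found by its name in a table of 60671 genes, where each had 1 row. Immediate-early genes are transcribed within minutes of a stimulus from factors already present in the cell, without new protein synthesis. Many of their transcripts are short-lived, and their products include transcription factors that pass the signal on to later genes. EGR1 is the classic serum- and growth factor-induced member of the group, and NR4A, KLF and IER genes respond to growth factors, cAMP, stress or inflammatory signals.

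There were 3 libraries from cells exposed to rutaecarpine, an alkaloid ligand of the aryl hydrocarbon receptor, and 3 from solvent control cells exposed to 0.1% DMSO. Cells of both groups were dosed in serum-free medium, and the treated medium held the same share of DMSO. The study used the libraries to look for genes that rutaecarpine regulates in this line. A single time point was sampled, so the values describe levels at 48 h and not the early hours in which these genes usually peak. Labels give no separate cultures or dates for the replicates, and p-values then measure only the spread between these samples, which may be technical.

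The deposited values were TPM, in which the reads of a gene are divided by transcript length and each library is brought to the same total. They keep no read number, so depth and counting error are unknown. Groups were compared with limma on log2(TPM + 1) over the 14377 genes that reached 1 TPM in 3 or more libraries, a scale that understates the change of low genes. A gene "passed" at an adjusted p of at most 0.05 (Benjamini-Hochberg over all tested genes) and was a differentially expressed gene (DEG) if its log2 fold change also exceeded 1 in size. Exact permutation tests were used for ratios of members, and with 3 libraries against 3 their two-sided p cannot go below 0.1. In bulk RNA, fewer cells of a type and less RNA per cell cannot be told apart.

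Of the line markers VIM, CD44, NES and COL1A1, all but CD44 fell. VIM averaged 7498 TPM in control and 4857 TPM in treated libraries, CD44 averaged 654.5 and 756 TPM, and CDKN2A, CDKN2B and MTAP, which are deleted in U87 cells, were at most 0.06 TPM in any library. The astrocyte marker AQP4 was at 0 in all 6 libraries and S100B at most 0.25 TPM, while GFAP was at 3.48 to 5.41 TPM and OLIG2 rose from 1.59 to 3.63 TPM (limma adjusted p = 0.0262). Of the 8 listed markers of other cell types, 7 were too low to be tested, with PTPRC at most 0.03 TPM. The exception was CD68, a lysosomal protein of macrophages also made by other cells, at 318.56 to 510.62 TPM, which fell by 0.46 on the log2 scale (limma adjusted p = 0.0178). One library stood apart: control replicate 3 had a median log2(TPM + 1) of 3.56, against 3.81 to 4.00 in the other 5 libraries. Its difference from the other controls followed base composition, with a median of -0.68 on the log2 scale for 2262 genes of at most 40% GC and 0.09 for 1960 genes over 60% GC. It was lower than the mean of the other controls by 1.15 for KLF6, 0.80 for EGR2, 0.66 for NR4A3 and 0.50 for NR4A2, the members of lowest GC content (45.9% to 50.9%), on the log2(TPM + 1) scale. For the other members it differed by 0.19 or less.

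After rutaecarpine, IER3, EGR1, EGR2 and IER2 rose, NR4A2 fell, and NR4A1, NR4A3, KLF4 and KLF6 did not pass the test, while EGR3 was too low to be tested. Passing genes made up 9.29% of all tested genes, of which those that rose were 4.6% and those that fell 4.68%. Of the 9 tested members, all of which were at 1 TPM or more in every library, 5 passed. IER3, EGR1 and EGR2 were DEGs, beside 3.51% of all tested genes. Groups did not overlap for 6 of the 9 tested members, against 33.3% of all tested genes. The median log2 fold change of the 9 was 0.45, and that of all tested genes 0.08. Without control replicate 3, 18.5% of all tested genes passed, and 6 of the 9 members did, with KLF6 added on the lower side.

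**Figure D1:**
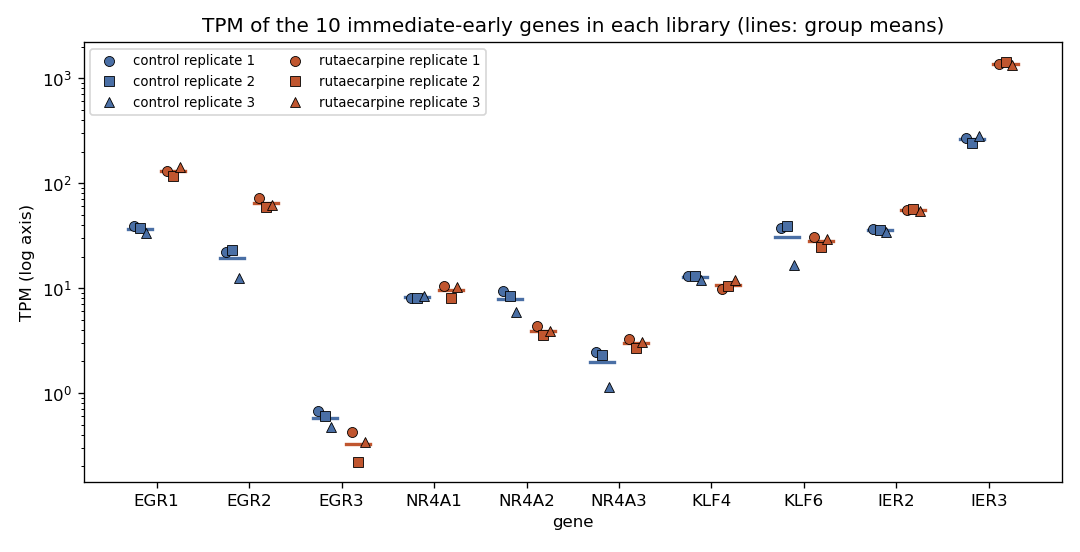
TPM of the 10 genes in each library on a log axis, with 3 solvent control and 3 rutaecarpine libraries per gene as points and short lines at the group means. IER3, EGR1, EGR2 and IER2 lie higher in all 3 treated libraries, and NR4A2 lower; control replicate 3 stands below the other controls for KLF6, EGR2 and NR4A3.

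The promoters of immediate-early genes are known for serum response elements, whose core is the CArG box bound by SRF, and for cAMP response elements bound by CREB. Windows of 250 bases upstream of annotated starts (RefSeq, GRCh38.p14) were matched for 7 of the 10 genes, 10 windows in all. The 3 windows below belong to genes that rose, and capitals mark CArG boxes, the CRE core letters TGACG on either strand, and the dioxin response element form TNGCGTG used in the methods of the study, on either strand.
EGR1 (chr5:138465229-138465478, plus strand): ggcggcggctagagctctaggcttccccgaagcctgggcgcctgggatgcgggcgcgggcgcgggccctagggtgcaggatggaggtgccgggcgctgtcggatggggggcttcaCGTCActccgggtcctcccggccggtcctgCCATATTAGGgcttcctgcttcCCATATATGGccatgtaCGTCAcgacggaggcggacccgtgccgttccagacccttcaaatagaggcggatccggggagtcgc
EGR2 (chr10:62816367-62816616, minus strand): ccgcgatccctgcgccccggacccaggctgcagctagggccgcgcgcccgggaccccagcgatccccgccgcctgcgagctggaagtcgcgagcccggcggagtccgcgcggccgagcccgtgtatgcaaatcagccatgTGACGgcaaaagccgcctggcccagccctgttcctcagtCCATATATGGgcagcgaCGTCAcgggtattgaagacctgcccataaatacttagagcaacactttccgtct
IER2 (chr19:13150161-13150410, plus strand): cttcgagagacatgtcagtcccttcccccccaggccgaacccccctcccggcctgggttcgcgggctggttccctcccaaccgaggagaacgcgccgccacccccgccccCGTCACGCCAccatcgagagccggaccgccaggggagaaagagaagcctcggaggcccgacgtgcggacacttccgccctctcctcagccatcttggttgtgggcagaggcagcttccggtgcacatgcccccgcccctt
Positions count back from the last base before the start. The EGR1 window held 2 CArG boxes, CCATATTAGG at -105 to -96 and CCATATATGG at -83 to -74. One of the 3 EGR2 windows, the one printed, held 1 box at -71 to -62, with the same letters as the second box of EGR1. CArG boxes were found in 1.16% of 35116 windows of the same length over all genes, and in none of the windows of NR4A1, NR4A3, KLF4, KLF6 and IER2.

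TGACG, which 21.2% of all windows held, was present in 5 of the members' 10 windows. EGR1 held it at -135 to -131 and -66 to -62, EGR2 at -110 to -106 and -54 to -50, and IER2 at -140 to -136. NR4A3, which did not pass the test, held it at 4 places, and KLF4 at 2. The full CRE, TGACGTCA (1.65% of all windows), was in none of the members' windows, nor were the NR4A response element AAAGGTCA (1.05%), the AP-1 site TGANTCA (6.57%) or the TATA box letters TATAAA (10.7%). TNGCGTG, in 4.52% of all windows, was found in the IER2 window at -137 to -131, where it overlaps the TGACG match, and in the KLF6 window at -220 to -214. Its core GCGTG alone, in 32.2% of all windows, was also present for NR4A3 and for 1 of the 2 NR4A1 windows. An EGR site, GCGNGGGCG, was held by 8.41% of all windows and lay at -198 to -190 in EGR1, -189 to -181 in KLF4 and -65 to -57 in KLF6. Both strands were searched, and a match describes letters only, not binding. NR4A2 and IER3 had no window, and windows on chromosome 8, where EGR3 lies, were left out of the members' search. The promoters of EGR3, NR4A2 and IER3 were therefore not searched for any of these letters. The search thus left out IER3, which rose the most, and NR4A2, the only member that fell. The CArG boxes of EGR1 and EGR2 were not set against EGR3, which did not rise with them.

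EGR1 and EGR2, zinc finger factors of the early growth response family, rose by similar amounts. EGR1 (ENSG00000120738; chromosome 5, 138465490 to 138469315, plus strand, in GENCODE release 29 on GRCh38) was at 38.97, 37.67 and 33.5 TPM in the control libraries and at 130.54, 115.86 and 141.57 TPM after rutaecarpine. Every treated library was above every control library. Means were 36.7 ± 2.86 and 129 ± 12.9 TPM (SD, n = 3), a 3.52-fold difference, and the log2 fold change was 1.79 (SE 0.11, limma adjusted p = 0.000334). This was rank 85 of the 14377 tested genes from the highest fold change.

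EGR2 (ENSG00000122877; chromosome 10, 62811996 to 62919900, minus strand), known for its part in myelination and in lymphocytes, was at 22.16, 22.87 and 12.51 TPM in control and at 71.8, 58.75 and 62.41 TPM in treated libraries. The lowest treated library was above the highest control, and control replicate 3 was the lowest of all 6. Means were 19.2 ± 5.79 and 64.3 ± 6.73 TPM (SD, n = 3), a 3.35-fold difference. The log2 fold change was 1.74 (SE 0.23, limma adjusted p = 0.00517), and 1.47 (SE 0.10, adjusted p = 0.000192) without control replicate 3. With all libraries EGR2 was at rank 90 from the highest fold change.

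The ratio of EGR1 to EGR2 was 1.76, 1.65 and 2.68 in the control libraries and 1.82, 1.97 and 2.27 in the treated ones. The groups overlapped, with means of 2.03 ± 0.566 and 2.02 ± 0.229 (exact permutation p = 0.9, two-sided). EGR3 (ENSG00000179388), the family member that EGR1-inducing signals also switch on in neurons and lymphocytes, was under 1 TPM throughout. It was at 0.67, 0.6 and 0.47 TPM in control and 0.43, 0.22 and 0.34 TPM in treated libraries. The groups did not overlap (exact permutation p = 0.1, the smallest this design allows), and without a filter on low TPM its log2 fold change was -0.25 (SE 0.11, limma adjusted p = 0.362 over 29330 genes). EGR4 was at most 0.06 TPM in any library. Summed TPM of the 3 EGR members was 56.5 ± 8.66 in control and 194 ± 16.6 in treated libraries (SD, n = 3), of which EGR3 made up less than 1 TPM.

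NAB1 and NAB2 are corepressors that bind EGR proteins, and NAB2 is itself an EGR target. NAB2 was at 43.52, 43.55 and 45.78 TPM in control and 44.98, 39.59 and 38.96 TPM in treated libraries. The groups overlapped, and the log2 fold change of -0.11 did not pass (SE 0.10, limma adjusted p = 0.549). EGR1 was thus at 0.831 ± 0.0871 times the TPM of NAB2 in control and 3.15 ± 0.416 times in treated libraries, and EGR2 at 0.436 ± 0.141 and 1.56 ± 0.0665 times (SD, n = 3). Neither ratio overlapped between the groups (exact permutation p = 0.1 for each). With NAB2 little changed, this restates the rise of EGR1 and EGR2 and is not a separate result. NAB1 averaged 36.0 ± 15.6 and 41.8 ± 3.61 TPM and did not pass (log2 fold change 0.32, SE 0.34, limma adjusted p = 0.595), with control replicate 3 at 17.99 TPM against 45.79 and 44.1 TPM in the other controls.

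The NR4A genes encode orphan nuclear receptors (Nur77, Nurr1 and NOR1) that act without a known classical ligand, and of the 3 only NR4A2 passed the test. NR4A2 (ENSG00000153234; chromosome 2, 156324432 to 156342348, minus strand), the member essential for midbrain dopamine neurons, was at 9.43, 8.35 and 5.98 TPM in control and at 4.33, 3.6 and 3.9 TPM in treated libraries. All 3 treated libraries were below all 3 controls, including the low control replicate 3. Means were 7.92 ± 1.76 and 3.94 ± 0.367 TPM (SD, n = 3), a ratio of 0.498, and the log2 fold change was -0.83 (SE 0.20, limma adjusted p = 0.044). That put NR4A2 at rank 434 of 14377 from the lowest fold change.

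This call rested close to the threshold. Without control replicate 3 the log2 fold change was -1.0 (limma adjusted p = 0.00451). It did not pass without control replicate 1 (-0.71, adjusted p = 0.134) or 2 (-0.79, adjusted p = 0.136), nor without rutaecarpine replicate 1 (-0.89, adjusted p = 0.127), 2 (-0.78, adjusted p = 0.148) or 3 (-0.83, adjusted p = 0.164).

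NR4A1 (ENSG00000123358; chromosome 12, 52022832 to 52059507, plus strand), a regulator of apoptosis and inflammation, was at 7.98, 8.09 and 8.39 TPM in control and 10.44, 8.09 and 10.22 TPM in treated libraries. Treated replicate 2 equalled control replicate 2, so the groups overlapped, and the log2 fold change was 0.20 (SE 0.15, limma adjusted p = 0.461). NR4A3 (ENSG00000119508; chromosome 9, 99821855 to 99866891, plus strand) was at 2.47, 2.31 and 1.15 TPM in control and 3.28, 2.66 and 3.06 TPM in treated libraries. The groups did not overlap, but the log2 fold change of 0.45 did not pass (SE 0.23, limma adjusted p = 0.28), and it was 0.24 without control replicate 3.

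Summed NR4A TPM was close in the groups, at 18.05 ± 2.26 in control and 16.5 ± 1.93 in treated libraries (SD, n = 3), while the makeup of the sum differed. NR4A2 held 47.4%, 44.5% and 38.5% of it in the control libraries and 24.0%, 25.1% and 22.7% in the treated ones. NR4A1 held 40.1%, 43.1% and 54.1% in control and 57.8%, 56.4% and 59.5% in treated libraries. NR4A3 held 7.41% to 12.4% in control and 17.8% to 18.5% in treated libraries. None of the 3 shares overlapped between the groups, but they add up to the whole and are not separate results. Groups did not overlap for 33.3% of all tested genes. Control replicate 3, low for NR4A2 and NR4A3, had the NR4A1 share of 54.1%, near the 56.4% of rutaecarpine replicate 2. The ratio of NR4A2 to NR4A1 went from 1.18, 1.03 and 0.713 in control to 0.415, 0.445 and 0.382 in treated libraries, a log2 difference of -1.21 (exact permutation p = 0.1). The ratio of NR4A3 to NR4A1 overlapped between the groups, with means of 0.244 and 0.314 (exact permutation p = 0.2).

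**Figure D2:**
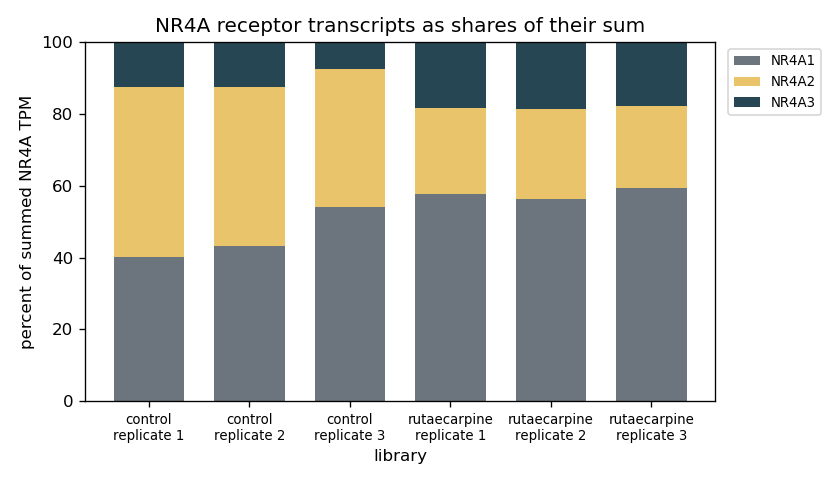
Share of summed NR4A TPM held by NR4A1, NR4A2 and NR4A3 in each of the 6 libraries, in percent, as stacked bars that start at 0. NR4A2 takes 38.5% to 47.4% in the 3 control libraries and 22.7% to 25.1% in the 3 rutaecarpine libraries.

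NR4A1 and NR4A2 can bind DNA as partners of retinoid X receptors. RXRA averaged 6.93 and 6.58 TPM and RXRB 19.5 and 22.5 TPM in control and treated libraries, and neither passed (limma adjusted p = 0.801 and 0.358), while RXRG was at 0 throughout. With NAB1 and NAB2, 0 of the 4 tested genes of this list of 5 corepressors and partners passed in limma, and the median log2 fold change was 0.06. None of the 4 had an unadjusted p under 0.05.

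KLF4 and KLF6, Krüppel-like zinc finger factors, did not pass the test. KLF4 (ENSG00000136826; chromosome 9, 107484852 to 107490482, minus strand), one of the pluripotency reprogramming factors, was at 13.17, 13.08 and 11.87 TPM in control and 9.84, 10.45 and 12.05 TPM in treated libraries. The highest treated library lay above the lowest control, and the log2 fold change was -0.22 (SE 0.14, limma adjusted p = 0.376). KLF6 (ENSG00000067082; chromosome 10, 3775996 to 3785281, minus strand), a widely expressed factor induced by injury, was at 37.21, 38.67 and 16.49 TPM in control and 30.67, 24.67 and 29.27 TPM in treated libraries. All 3 treated values lay between control replicate 3 and the other controls.

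The KLF6 value therefore depended on which control was used. With all 6 libraries its log2 fold change was -0.04 (SE 0.31, limma adjusted p = 0.955), and without control replicate 3 it was -0.42 (SE 0.11, adjusted p = 0.0393), which passed. KLF6 has the lowest GC content of the 10 genes (45.9% of its longest transcript), and the part of base composition in its low value in control replicate 3 was not tested. The ratio of KLF6 to KLF4 was 2.83, 2.96 and 1.39 in control and 3.12, 2.36 and 2.43 in treated libraries, with overlap (exact permutation p = 0.8).

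Among the KLF genes outside the set, KLF2, KLF5, KLF9 and KLF15 rose and KLF10 fell. KLF5, a factor of proliferating epithelia, averaged 4.67 ± 1.63 TPM in control and 15.4 ± 1.75 TPM in treated libraries (SD, n = 3) and rose by 1.57 on the log2 scale (limma adjusted p = 0.00981). KLF2, the flow-induced endothelial factor, was at 1.67, 1.0 and 2.51 TPM in control and 3.96, 7.46 and 8.22 TPM in treated libraries, a log2 fold change of 1.46 (limma adjusted p = 0.0317). KLF9, a glucocorticoid-responsive factor, rose by 1.10 from 4.39 to 10.4 TPM (limma adjusted p = 0.0221). KLF15, also glucocorticoid-responsive, rose by 0.99 from a mean of 0.27 to 1.52 TPM (limma adjusted p = 0.0191), and it passed the filter only through its treated libraries. KLF10, which TGF-beta induces early, fell by 0.81 from 37.3 to 20.4 TPM (limma adjusted p = 0.0466). KLF13, which had the highest mean of this list over all 6 libraries, averaged 32.3 and 38.9 TPM and did not pass (limma adjusted p = 0.279).

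Of 19 further members of the EGR, KLF and IER families, 13 were tested, 4 rose and 2 fell (KLF10 and IER5L). Their median log2 fold change was 0.23, and 9.29% of all tested genes passed. None of the 6 calls in these families held in all 6 fits that leave out 1 library. KLF5 was lost only without rutaecarpine replicate 3 (adjusted p = 0.0588), KLF10 and IER5L held only without control replicate 3, and KLF2, KLF9 and KLF15 held in 2 of the 6 fits. The highest limma adjusted p in those fits was 0.156, for KLF10.

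IER3 was the most abundant of the 10 genes and rose the most. IER3 (ENSG00000137331; chromosome 6, 30743199 to 30744554, minus strand), also known as IEX-1, is a stress- and NF-kappaB-inducible regulator of apoptosis. It was at 270.86, 242.7 and 280.8 TPM in control and 1357.34, 1414.77 and 1342.04 TPM in treated libraries, with little spread in either group. Means were 265 ± 19.8 and 1371 ± 38.3 TPM (SD, n = 3), a 5.18-fold difference. The log2 fold change was 2.37 (SE 0.08, limma adjusted p = 3.4e-05), rank 36 of 14377 from the highest, and the mean level of IER3 over all libraries was above that of 98.5% of the tested genes. The antisense gene IER3-AS1 overlaps it, and whether the reads were counted by strand is not given in the sources used here. It was listed at no more than 1.16 TPM in any library, at most 0.0855% of the TPM of IER3. Genes on the opposite strand also overlap IER2, NR4A1 and EGR3. These were not found by name in the deposited values, so their levels could not be checked.

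IER2 (ENSG00000160888; chromosome 19, 13150415 to 13154908, plus strand), a nuclear protein linked to cell motility, was at 36.72, 35.63 and 34.09 TPM in control and 55.32, 56.13 and 54.65 TPM in treated libraries. The groups were far apart relative to their spread, at 35.5 ± 1.32 and 55.4 ± 0.741 TPM (SD, n = 3), a 1.56-fold difference. IER2 rose by 0.63 on the log2 scale (SE 0.09, limma adjusted p = 0.00577), below the size asked of a DEG. The ratio of IER3 to IER2 was 7.38, 6.81 and 8.24 in control and 24.5, 25.2 and 24.6 in treated libraries, without overlap (log2 difference 1.73, exact permutation p = 0.1).

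The related genes IER5 and IER5L, which encode proteins with an IER2-like domain, were lower in treated libraries. IER5 was at 7.3, 8.03 and 7.08 TPM in control and 4.99, 5.28 and 5.04 TPM in treated libraries, with no overlap, yet its log2 fold change of -0.47 did not pass (SE 0.14, limma adjusted p = 0.0963). Without control replicate 3 it passed on the lower side. IER5L fell by 0.79 from 18.8 ± 4.44 to 10.3 ± 0.0907 TPM (limma adjusted p = 0.0366). The ratio of IER2 to IER5 averaged 4.76 ± 0.300 in control and 10.9 ± 0.228 in treated libraries (SD, n = 3), without overlap (exact permutation p = 0.1). IER2 and IER5 each differed without overlap in opposite directions, so their ratio was bound not to overlap.

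**Figure D3:**
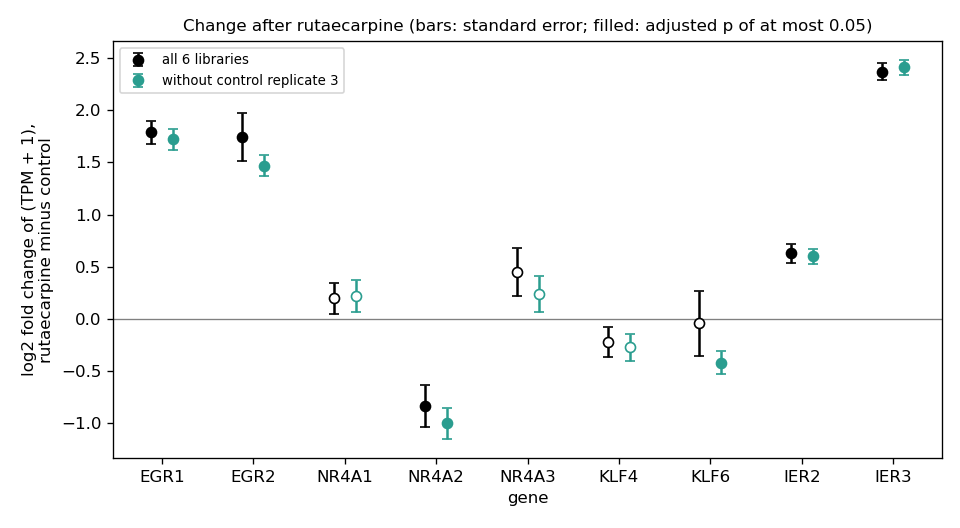
Log2 fold change (rutaecarpine minus control, log2(TPM + 1) scale) with its standard error for the 9 tested genes, from all 6 libraries and without control replicate 3. Filled points have an adjusted p of at most 0.05. Without that library EGR2 moves from 1.74 to 1.47, KLF6 from -0.04 to -0.42 and NR4A2 from -0.83 to -1.0.

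TPM allow levels to be set side by side between genes. In control libraries IER3 stood first, followed by EGR1, IER2, KLF6, EGR2 and KLF4, whose ranges overlapped from each gene to the next. NR4A1 and NR4A2 came after a gap and overlapped each other, and NR4A3 and EGR3 stood apart below them. Each of these overlaps came only through control replicate 3, where EGR1 was at 33.5, KLF6 at 16.49, EGR2 at 12.51 and NR4A2 at 5.98 TPM. In treated libraries the order was IER3, EGR1, EGR2, IER2, KLF6, KLF4, NR4A1, NR4A2, NR4A3 and EGR3, and only KLF4 and NR4A1 overlapped as neighbours. IER3 made up 59.2% to 69.3% of the summed TPM of the 10 genes in control libraries and 80.9% to 83.5% in treated ones. The sum of the 10 was 418 ± 18.6 TPM in control and 1676 ± 17.95 TPM in treated libraries, and without IER3 it was 153.5 ± 25.2 and 305 ± 21.2 TPM (SD, n = 3).

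The genes whose profiles over the 6 libraries were nearest to a member were found by the root mean square difference of centred log2(TPM + 1) values, as a description. Group means and control replicate 3 shape these profiles. For EGR2 the nearest was DUSP6, the ERK phosphatase induced by ERK signalling, with a difference of 0.054 and means of 32.3 TPM in control and 112 TPM in treated libraries. EML1 (0.088) and JARID2 (0.111) followed. For EGR1 the nearest were TFAP2A (0.079), INSYN2A (0.101) and PLA2G4A (0.107), and TFAP2A averaged 6.14 TPM in control and 24.8 TPM in treated libraries. INSYN2A was at most 0.94 TPM in the control libraries and passed the filter only through its treated libraries.

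IER3 was nearest to IL1RN, the interleukin-1 receptor antagonist (0.083, 12.4 and 65.0 TPM), then KRT17 (0.093) and GGT4P (0.116), a pseudogene copy whose reads may be shared with its paralogs. KRT17 was at most 0.71 TPM in the control libraries and also passed the filter only through its treated libraries. IER2 was nearest to LMO4 (0.034), PDCD6 (0.041) and PCBP3 (0.047). NR4A2 was nearest to MCM6, a subunit of the replication helicase (0.065, 35.8 and 18.65 TPM), then PLCE1 (0.065) and KIF4A, a mitotic kinesin (0.070).

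Factors that drive these genes were measured too. They were SRF, its ternary complex partners ELK1, ELK3 and ELK4, the coactivators MRTFA and MRTFB, CREB1 and CREM, and the CREB coactivators CRTC1, CRTC2 and CRTC3. All 11 were tested and 0 passed in limma, with a median log2 fold change of 0.09. SRF averaged 11.8 ± 0.944 TPM in control and 12.6 ± 0.540 TPM in treated libraries. ELK1, with the highest mean of this list over all 6 libraries, was at 41.98, 42.13 and 37.25 TPM in control and 52.19, 42.75 and 49.71 TPM in treated libraries (log2 fold change 0.24, limma adjusted p = 0.24). CREM averaged 28.7 and 30.4 TPM (limma adjusted p = 0.768). CRTC2 alone had an unadjusted p under 0.05, with 24.9 and 32.3 TPM and a limma adjusted p of 0.154. Without control replicate 3, ELK3 passed on the lower side. These values are transcript levels, and the activity of such factors is set largely by phosphorylation or localization, which was not measured.

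Among 24 other immediate-early genes, 21 were tested, 3 rose and 4 fell, beside 9.29% of all tested genes that passed. The median log2 fold change of the list was 0.05. CSRNP1, a nuclear factor induced early by several signals, rose by 1.03 from 10.1 ± 0.518 to 21.6 ± 1.57 TPM (SD, n = 3, limma adjusted p = 0.00357). BTG1, an antiproliferative gene, rose by 0.60 (35.0 to 53.7 TPM, limma adjusted p = 0.00918), and RHOB, an immediate-early small GTPase, by 0.72 (8.42 to 14.5 TPM, limma adjusted p = 0.0156).

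The 4 that fell were ID1, CCN2, PLK2 and MYC. ID1, a BMP-responsive inhibitor of differentiation, fell by 1.99 from 56.9 ± 1.28 to 13.7 ± 2.04 TPM (limma adjusted p = 0.000434). CCN2, a matricellular protein gene, fell by 1.48 from 15.9 ± 1.78 to 5.04 ± 0.546 TPM (limma adjusted p = 0.00207). PLK2 fell by 1.12 (12.6 to 5.25 TPM, limma adjusted p = 0.00582) and MYC by 0.67 (56.8 to 35.5 TPM, limma adjusted p = 0.00785). The genes with the highest means over all 6 libraries in this list, ZFP36L1 (151 and 112 TPM) and MCL1 (71.2 and 111 TPM), did not pass (limma adjusted p = 0.24 and 0.097). Without control replicate 3, 5 genes of this list passed on the higher side, with TRIB1 and MCL1 added, and 7 on the lower side, with ZFP36L1, CCN1 and GEM added. Of the 7 calls, 5 held in all 6 fits that leave out 1 library. BTG1 did not pass without rutaecarpine replicate 3 (adjusted p = 0.0503), and RHOB passed only without control replicate 3.

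The AP-1 genes, the other large immediate-early family, were set beside the 10 genes. Of 9 tested, 6 rose and 0 fell, with a median log2 fold change of 0.57, beside 4.6% of all tested genes that rose. FOS, which is induced together with EGR1 through SRF in many cells, was at 5.24, 4.1 and 3.52 TPM in control and 6.24, 6.69 and 7.38 TPM in treated libraries. The groups did not overlap, but FOS did not pass (log2 fold change 0.57, SE 0.18, limma adjusted p = 0.109). ATF3, a stress-induced factor, rose by 1.37 from 35.6 ± 5.4 to 93.4 ± 14.0 TPM (SD, n = 3, limma adjusted p = 0.00269), and MAFF by 1.16 from 34.9 to 78.9 TPM (limma adjusted p = 0.000919).

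JUN rose by 0.90 from 190 to 353 TPM (limma adjusted p = 0.00514), FOSB by 1.07 from 1.36 to 3.96 TPM (adjusted p = 0.0124), JUNB by 0.47 (adjusted p = 0.014) and JUND by 0.41 (adjusted p = 0.0283). JUN, ATF3 and MAFF passed in all 6 fits that leave out 1 library. FOSB was lost without control replicate 1, rutaecarpine replicate 1 or rutaecarpine replicate 3 (adjusted p at most 0.0686), and JUNB and JUND passed only without control replicate 3. Without control replicate 3, FOSL2 passed on the lower side. The 9 AP-1 genes summed to 720 ± 52.7 TPM in control and 1069 ± 10.3 TPM in treated libraries.

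Over the 5 lists beside the 10 genes, 58 of 68 genes were tested, 13 rose and 6 fell, or 32.8%, and 10 were DEGs. Of all tested genes, 9.29% passed and 3.51% were DEGs. The count of listed genes that passed was 27 without control replicate 3, where 18.5% of all tested genes passed. It was 10 and 12 without control replicates 1 and 2, and 11, 12 and 8 without rutaecarpine replicates 1, 2 and 3. Of the 5 members that passed, EGR1, EGR2, IER2 and IER3 passed in limma with each library left out in turn, with adjusted p of at most 0.00505, 0.0337, 0.0415 and 0.00129.

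**Figure D4:**
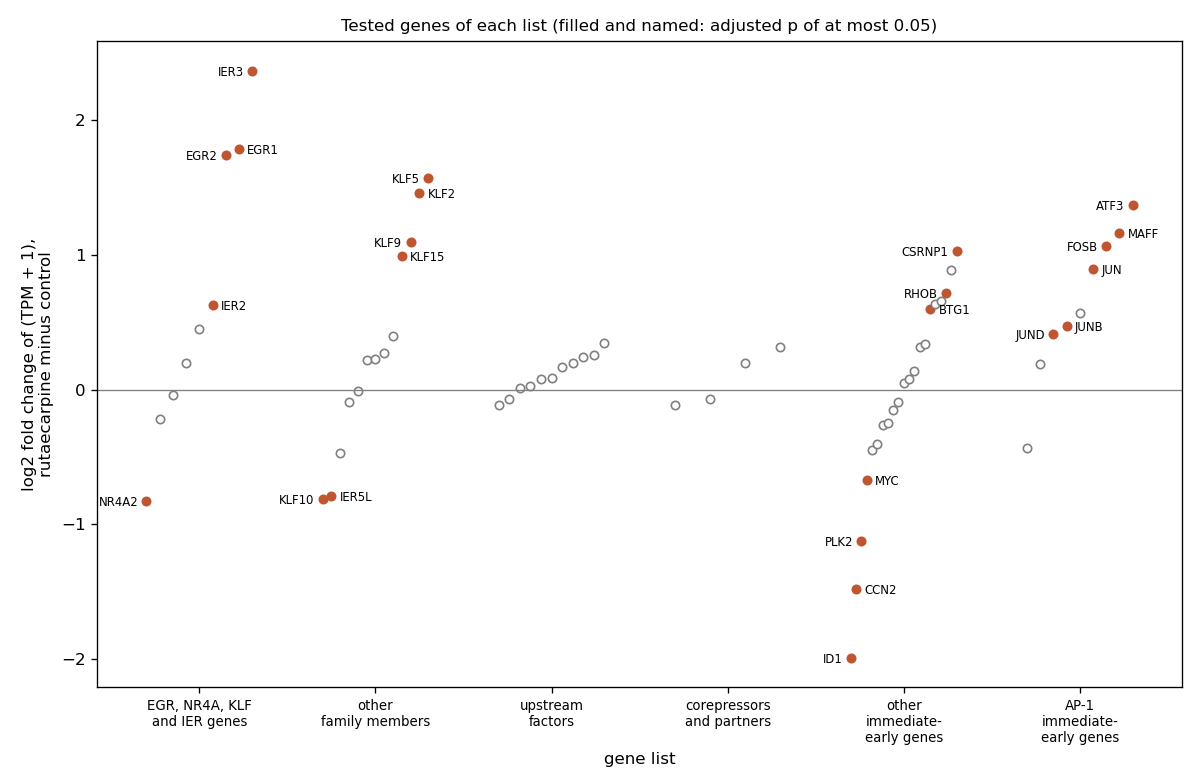
Log2 fold changes (rutaecarpine minus control, log2(TPM + 1) scale) of the tested genes of each list, 1 point per gene, filled and named where the adjusted p was at most 0.05. The 10-gene set spreads from NR4A2 at -0.83 to IER3 at 2.37, AP-1 genes have a median of 0.57, and the upstream factors lie near 0 with a median of 0.09.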

How the data were processed

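RNA of U87 cells (3 rutaecarpine, 3 solvent control libraries) was sequenced by the authors. TPM values were deposited by the authors, 1 column per library, made with RSEM on GRCh38.p13 according to the submitters' processing notes, which also name DESeq2 and edgeR. The aligner and annotation release are not given in the sources used here. RSEM divides reads shared by similar or overlapping genes, so such genes are uncertain. Groups came from the sample labels.

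Log2(TPM + 1) of 14377 genes (those reaching 1 TPM in 3 or more libraries) was compared with limma 3.58.1 in R 4.3.3 (empirical Bayes with trend, two-sided, Benjamini-Hochberg). DEG cutoffs were those of the study, applied here to limma fold changes of log2(TPM + 1), so calls can differ from those of the study. The study lists NR4A2 among its down-regulated DEGs, while here its log2 fold change of -0.83 was below that size. With a pseudocount of 0.1 it was -0.97, and without control replicate 3 NR4A2 was a DEG here too, at -1.0 after rounding. Tables and exact permutation tests were made in Python 3.11.15 with scipy 1.17.1. Genes without a name were matched by identifier. The fits were tested on simulated data with independent noise, whose spread was taken without control replicate 3. Such data do not hold the shift of that library, so its effect on the fits was not tested there. Members and lists were chosen with earlier results of these data known, and the lists beside the members hold further family members, upstream factors, corepressors and partners, other immediate-early genes and AP-1 genes. Named genes are all members, every listed gene that passed, the 2 of each list with the highest mean TPM over all libraries, and the 3 most alike each passing member. FOS, IER5, EGR4, SRF, CRTC2, RXR genes, ELK3, FOSL2, TRIB1, CCN1, GEM and the line and cell type markers were named outside this rule. Alternatives covered pseudocount, filter, trend, centring, replicate block, library weights, length and GC correction, left-out libraries, a 1.2-fold null and a stricter threshold.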

Additional observations from a re-analysis of the deposited data

How the results depend on the processing

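EGR1 and IER3 passed in limma under all 18 alternatives (log2 fold changes 1.69 to 1.86 and 2.28 to 2.44), EGR2 under 17 and IER2 under 16, NR4A2 under 9. KLF4, NR4A1 and NR4A3 passed under none and kept their sign. Labels do not say whether same-numbered libraries were made together. Correlations of same-numbered deviations from group means (0.116, -0.266 and -0.215) cannot decide this, because control replicate 3 shapes the deviations. In limma with the replicate block 3 members passed (EGR1, EGR2 and IER3), as did 6 genes of the other lists and 428 of all genes. IER2 at 0.63 (adjusted p = 0.0634) and NR4A2 at -0.83 (adjusted p = 0.14) did not pass there. With the length and GC correction and the block together 5 members passed. Library weights gave 32 genes of the other lists and 3962 of all genes. The length and GC correction gave 2762 of all genes. That correction without control replicate 3, chosen after seeing the data, gave KLF6 at -0.36 (adjusted p = 0.0132), 29 and 3543 genes. Against 1.2-fold, NR4A2 did not pass at -0.83 (adjusted p = 0.17), with 9 and 584 genes, and it did not pass without the filter on low TPM (adjusted p = 0.107). At an adjusted p of at most 0.001, EGR2 (1.74), IER2 (0.63) and NR4A2 (-0.83) were lost, leaving 2 members, 2 genes of the other lists and 96 of all genes. With each library left out in turn, 4 to 6 members passed, 3 to 4 were DEGs, and 8 to 27 genes of the other lists and 539 (without rutaecarpine replicate 3) to 2666 (without control replicate 3) of all genes passed. Log2 fold changes then ranged from -1.0 to -0.71 for NR4A2 and from -0.42 to 0.17 for KLF6, which turned sign without control replicate 1 (0.14), control replicate 2 (0.17) or rutaecarpine replicate 2 (0.05). Beyond the left-out libraries and constructions named, the causes were not tested. TPM keep no depth, so no limit of detection can be given for EGR3.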
